A study of Homo sapiens with 4 samples.

Results

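The comparison described here is between 2 knockout cultures, the library labelled OVCAR3 KO and the library labelled SKOV3 KO. Both carry a CRISPR-Cas9 knockout aimed at the envelope gene env of HERV-K, given as HERV-K119 KO in the genotype label. Genes were compared where at least 1 of these 2 libraries reached 5 CPM, its count scaled to the library total. That rule took 11611 of the 52402 gene symbols in the count tables. Of these, 10247 reached the level in both libraries, 887 only in OVCAR3 KO and 477 only in SKOV3 KO. A gene just inside the limit was ACE at 5.02 CPM, and just outside it was CTSK at 4.99 CPM.

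RNA was sequenced from 4 groups: SKOV3 KO, OVCAR3 KO and the 2 mock cultures SKOV3 mock and OVCAR3 mock, whose genotype label is Control. Each group held 1 library, so no difference between libraries has a replicate check and no p-value is given. All 4 cultures, controls included, had been transfected and then kept for 2 days in hygromycin at 100 μg/mL. The labels do not say whether a knockout culture was 1 clone or a mixed population. HERV-K is a family of endogenous retroviruses, remnants of old germline infections, and some of its copies still encode envelope protein. SKOV3 and OVCAR3 are epithelial lines grown from ovarian cancers. SKOV3 is known for ERBB2 amplification and for the loss of CDKN2A, and OVCAR3 for CCNE1 amplification and the ovarian markers PAX8, WT1 and MUC16.

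Library totals lay between 15145483 and 22057693 counts. OVCAR3 KO stood apart from the other 3 libraries in its makeup. Mitochondrially encoded transcripts took 21.9% of its counts, against 5.16% to 5.93% in the others, and long noncoding RNAs took 1.30%, against 0.797% to 0.989%. The nuclear RNA NEAT1 was at 1612 CPM there and at 142 to 446 CPM elsewhere. From here on CPM are scaled by effective library sizes (TMM), and a log2 ratio is OVCAR3-labelled over SKOV3-labelled with a prior count of 2. Intervals beside a ratio are exact 95% Clopper-Pearson intervals of the ratio of counts. Reads had no molecular identifiers, so the intervals cover counting error only. In these bulk cultures, fewer cells of a type and less RNA per cell cannot be told apart.

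The genes that mark the 2 lines did not separate the libraries as the labels would have it. CDKN2A, an inhibitor of the cell cycle that SKOV3 is known to have lost, was at 91.2 CPM in SKOV3 KO and 34.1 CPM in OVCAR3 KO, with 90.6 and 50.5 CPM in the mock pair. ERBB2 was at 55.7 CPM in SKOV3 KO and 32.0 CPM in OVCAR3 KO, and STARD3 beside it on chromosome 17 at 51.8 and 38.5 CPM. CCNE1 was at 19.7 CPM in SKOV3 KO and 25.6 CPM in OVCAR3 KO. Neither ERBB2 nor CCNE1 differed by 2-fold in either pair. WT1 and SOX17, transcription factors of the ovarian and tubal epithelium, had a count of 0 in all 4 libraries. PAX8 was at 5.64 CPM in SKOV3 KO and 3.33 CPM in OVCAR3 KO, a log2 ratio of -0.74 (-1.30 to -0.24), against 0.88 in the mock pair. MUC16, which encodes the antigen CA125, did follow the labels, with 0.0634 CPM in SKOV3 KO and 6.18 CPM in OVCAR3 KO. FOLR1, the folate receptor of ovarian cancers, was at 2.66 and 19 CPM. Because several of these genes go against the line names, the libraries are called by their labels throughout.

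**Figure D1:**
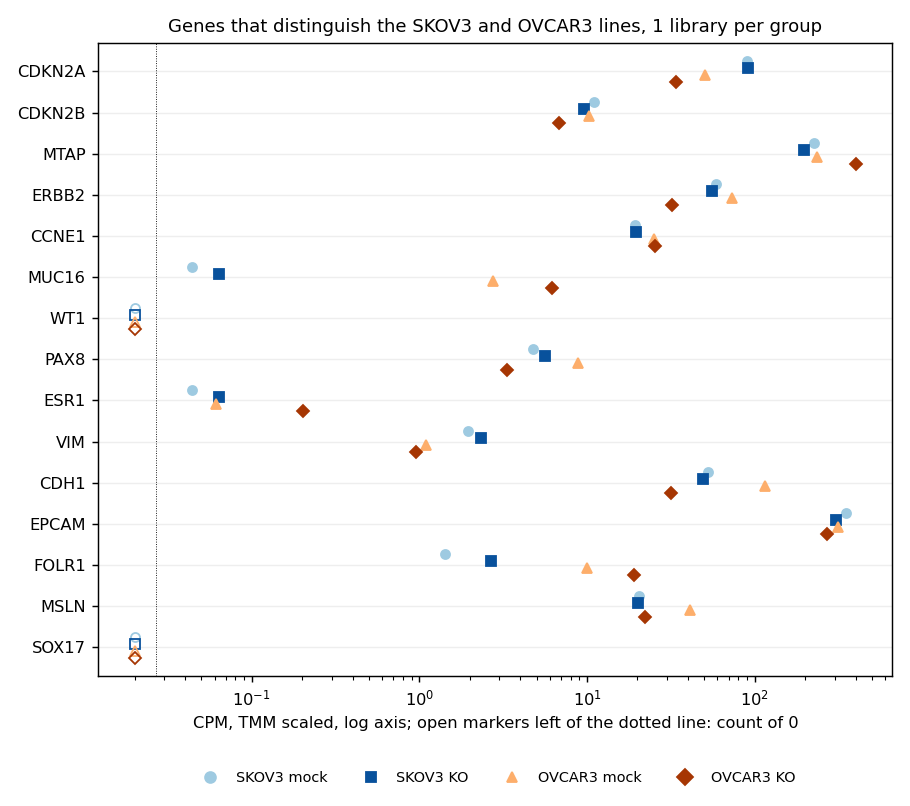
CPM (log axis) of 15 genes that distinguish the lines, 1 point per library, with open markers for a count of 0. MUC16 and FOLR1 sit higher in both OVCAR3-labelled libraries, while CDKN2A is present in the SKOV3-labelled libraries and WT1 and SOX17 are at 0 in all 4.

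The labelled cell type, epithelial, was checked against its markers. EPCAM, an epithelial adhesion molecule, was at 308 CPM in SKOV3 KO and 268 CPM in OVCAR3 KO. Other epithelial genes differed more. Of 7 keratins compared, 5 were lower by 2-fold in OVCAR3 KO and 0 higher. Among 24 junction and adhesion genes 6 were lower and 1 higher. Of 26 mesenchymal and fibroblast markers 10 were compared, and the list summed to 381 CPM in SKOV3 KO and 570.4 CPM in OVCAR3 KO, with 401 and 536 CPM in the mock pair. Its filament gene VIM was at 2.35 and 0.95 CPM, the receptor kinase gene AXL at 113 and 39.1 CPM and S100A4 at 66.7 and 361 CPM. Of the markers of other cell types, those compared were 0 of 16 hepatic, 0 of 12 lung and neuroendocrine, 1 of 11 renal, 1 of 16 squamous and urothelial, 1 of 10 breast luminal, 1 of 15 immune, 2 of 11 endothelial and 3 of 22 intestinal markers. The summed level of the intestinal list was 76.6 CPM in SKOV3 KO and 40.3 CPM in OVCAR3 KO, with 80.03 and 93.3 CPM in the mock pair. CDX2, a transcription factor of the gut, stood at 13.1 CPM in SKOV3 KO and 5.09 CPM in OVCAR3 KO. Of the immune list only CD68 was compared, at 34.6 and 8.21 CPM, and the list summed to 41.6 and 14.2 CPM. Summed levels in SKOV3 KO and OVCAR3 KO were 3.36 and 3.53 CPM for the hepatic list, 4.25 and 5.29 CPM for the lung and neuroendocrine list and 52.2 and 40.5 CPM for the endothelial list. Defining markers with a count of 0 in all 4 libraries were TTR and AFP (hepatic), CHGA (neuroendocrine), PTPRC and CD3D (immune), KRT20, FABP1 and CDX1 (intestinal) and COL3A1 (fibroblast). The part of other cell types in the differences below was not tested.

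Many genes differed by size in the knockout pair, and between 9.90% and 21.3% of them differed the same way in the mock pair. By a rule of at least 2-fold, 1680 of 11611 genes were higher in OVCAR3 KO (14.5%) and 1989 were lower (17.1%). In the mock pair, over the same genes, 803 were higher in OVCAR3 mock (6.92%) and 501 were lower (4.31%). In both pairs together 358 genes were higher (3.08%) and 197 were lower (1.7%). The 358 genes made up 21.3% of the knockout list and 44.6% of the mock list. The 197 genes made up 9.90% and 39.3%. The pairs share no library. The median log2 ratio of all genes, against which the lists below can be read, was -0.07 in the knockout pair and -0.01 in the mock pair. Counts of list members past 2-fold can be read against the 14.5% and 17.1% of all genes. A further 123 genes were higher in OVCAR3 KO and lower in OVCAR3 mock, and 42 were the reverse, together 165 genes (1.42%). Of the 1989 genes lower in OVCAR3 KO, 1153 (58.0%) had a mock log2 ratio between -0.5 and 0.5, and so did 703 (41.8%) of the 1680 higher ones.

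The SD of the log2 ratio over the genes was 1.14 in the knockout pair and 0.668 in the mock pair. Within the labels it was 0.261 between SKOV3 KO and SKOV3 mock and 1.10 between OVCAR3 KO and OVCAR3 mock. These ratios share libraries with the knockout pair. Across genes, the knockout and mock ratios had a Pearson r of 0.27 and a Spearman rho of 0.27, where genes are not independent replicates. Separated by at least 2-fold across all 4 libraries were 299 genes higher in both OVCAR3-labelled libraries and 167 higher in both SKOV3-labelled ones. The split of calls rests on the scaling: DESeq2 size factors gave 1306 higher and 2580 lower genes, and plain totals without mitochondrial transcripts gave 1933 and 1708. Between them the ratios of all genes moved from -0.19 to 0.11 on the log2 scale against the values given here, and TMM factors computed without a filter on low counts, chosen after seeing the data, moved them by -0.30.

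**Figure D2:**
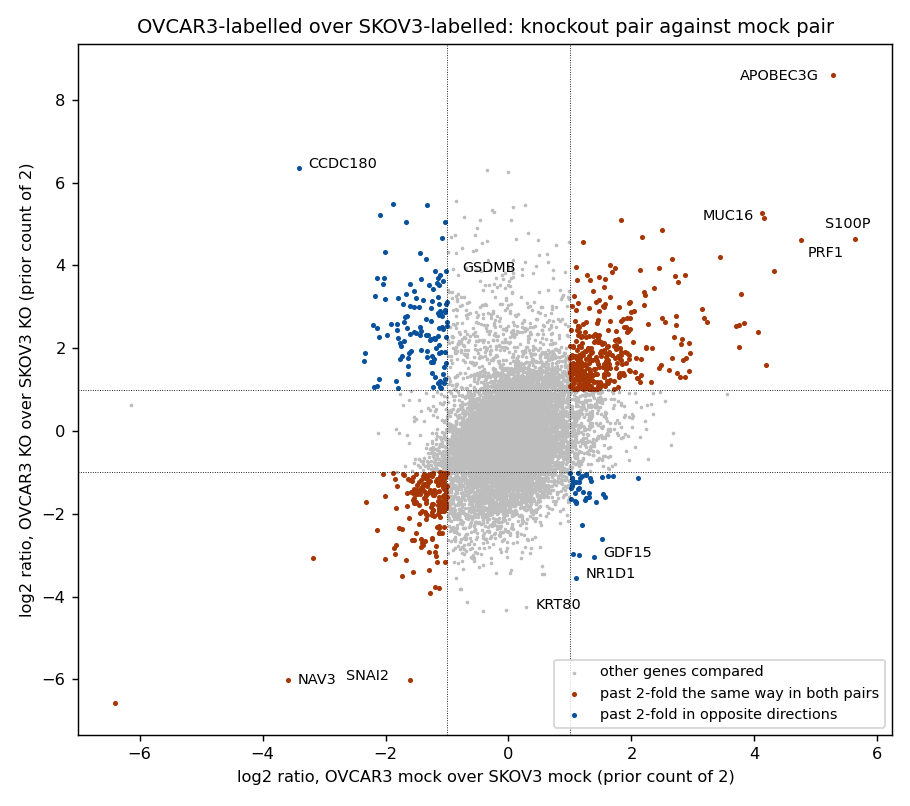
Log2 ratio of each compared gene in the knockout pair (y axis) against the mock pair (x axis), with dotted lines at 2-fold and Y-linked genes not drawn. The 358 and 197 genes past 2-fold the same way lie at the upper right and lower left, and the 123 and 42 with opposite directions at the upper left and lower right.

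The APOBEC3 cytidine deaminases, which edit retroviral and retroelement DNA, had the highest median ratio of the lists, 2.33 in the knockout pair and 2.20 in the mock pair. Of 7 family members 6 were compared, and 5 were higher in the OVCAR3-labelled library of both pairs, beside 3.08% of all genes. APOBEC3G, APOBEC3D and APOBEC3H were below 5 CPM in SKOV3 KO and were compared only through OVCAR3 KO. In the knockout pair they could therefore only be higher in OVCAR3 KO. APOBEC3B was compared only through SKOV3 KO and could only be lower in OVCAR3 KO. The knockout median and its rank rest in part on that choice. The largest ratio was that of APOBEC3G (GRCh38 chromosome 22, 39077005 to 39087743). It had 1 count in SKOV3 KO and 1013 counts in OVCAR3 KO, which is 0.0634 and 68.8 CPM, with 0.354 and 18.0 CPM in the mock pair. The log2 ratio was 8.59 (7.60 to 15.39) in the knockout pair and 5.27 in the mock pair. APOBEC3F was at 16 CPM in SKOV3 KO and 101 CPM in OVCAR3 KO, a log2 ratio of 2.64 (2.46 to 2.85) beside 3.23 in the mock pair. APOBEC3C was at 36.2 and 121 CPM, a ratio of 1.74 (1.61 to 1.88) beside 2.16. APOBEC3D was at 2.60 and 33.9 CPM and APOBEC3H at 1.40 and 5.97 CPM. APOBEC3B went the other way, with 7.17 CPM in SKOV3 KO and 1.36 CPM in OVCAR3 KO, a ratio of -2.31 (-3.17 to -1.71) beside -0.63. The 6 genes lie side by side on chromosome 22, from 38982347 for APOBEC3B to 39104067 for APOBEC3H. They are similar in sequence, and how reads shared by them were counted is not given in the sources used here.

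Other genes were higher by at least 2-fold in the OVCAR3-labelled library of both pairs. CLSTN2, PRF1, S100P, TNFSF18, SERPINA5, TMEM132B, SPACA6 and POU3F1 were all below 2 CPM in both SKOV3-labelled libraries. They were compared only through OVCAR3 KO, so in the knockout pair they could only be higher there. CLSTN2, a calsyntenin of the cell surface, was at 1.33 CPM in SKOV3 KO and 55.3 CPM in OVCAR3 KO, with 1.02 and 19.7 CPM in the mock pair. Its log2 ratio was 5.26 (4.75 to 6.07) in the knockout pair and 4.13 in the mock pair. PRF1, which encodes the pore-forming protein perforin, was at 0.761 and 21.3 CPM in the knockout pair and at 1.20 and 35.4 CPM in the mock pair. S100P, a calcium-binding protein, was at 0.254 and 9.10 CPM, a log2 ratio of 4.64 (3.77 to 7.06) beside 5.64 in the mock pair. TNFSF18, the ligand of the receptor GITR, was at 0.190 and 8.76 CPM, a ratio of 4.86 (3.94 to 7.82) beside 2.50. SERPINA5 and TMEM132B had ratios of 4.20 (3.25 to 7.16) and 4.15 (3.26 to 6.57), beside 3.44 and 2.65. The level in OVCAR3 KO was close to that in OVCAR3 mock for SERPINA5 (5.50 and 5.48 CPM) and S100P (9.10 and 7.85 CPM). For SPACA6 and POU3F1, 8.21 and 6.58 CPM in OVCAR3 KO stood against 0.609 and 0.791 CPM in OVCAR3 mock. Their mock ratios rest on few counts, 10 in OVCAR3 mock and 2 in SKOV3 mock for SPACA6, and 13 and 7 for POU3F1. The mock ratio of POU3F1 was 1.09 (-0.08 to 2.92). ID1 and ID2, inhibitors of basic helix-loop-helix factors and targets of BMP signalling, were also higher in both pairs, from higher levels. ID2 was at 14.9 CPM in SKOV3 KO and 143 CPM in OVCAR3 KO, with 17.8 and 56.2 CPM in the mock pair, and ID1 was at 93.2 and 381 CPM, with 98.1 and 462 CPM.

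At the lower end in both pairs stood SNAI2, NAV3 and ETS1. SNAI2, a repressor of epithelial genes, was at 11.8 CPM in SKOV3 KO and 0.0679 CPM, 1 count, in OVCAR3 KO, with 7.62 and 2.43 CPM in the mock pair. Its log2 ratio was -6.02 (-12.75 to -4.95) in the knockout pair and -1.60 in the mock pair. NAV3, a microtubule-associated protein, was at 42.4 and 0.543 CPM, a ratio of -6.01 (-7.51 to -5.30) beside -3.59. ETS1, a transcription factor, was at 74.7 and 7.13 CPM in the knockout pair and at 94.9 and 38.5 CPM in the mock pair. NRP1, a receptor for semaphorins and VEGF, was at 8.24 and 0.679 CPM, a ratio of -3.40 (-4.70 to -2.68) beside -1.56. GLIS3 and RAET1E had ratios of -3.15 (-3.95 to -2.62) and -3.12 (-3.83 to -2.63), beside -1.16 and -1.67. For all 6 of these genes OVCAR3 KO was the lowest of the 4 libraries. They were named for low ratios in both pairs, so the choice itself favours that order. All but ETS1 were below 5 CPM in OVCAR3 KO and were compared only through SKOV3 KO. NT5E, the ectonucleotidase CD73, was at 277 CPM in SKOV3 KO and 35.4 CPM in OVCAR3 KO, with 318 and 88.9 CPM in the mock pair. Of the 10 mesenchymal and fibroblast markers compared, 1 was higher in OVCAR3 KO (S100A4) and 4 were lower.

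**Figure D3:**
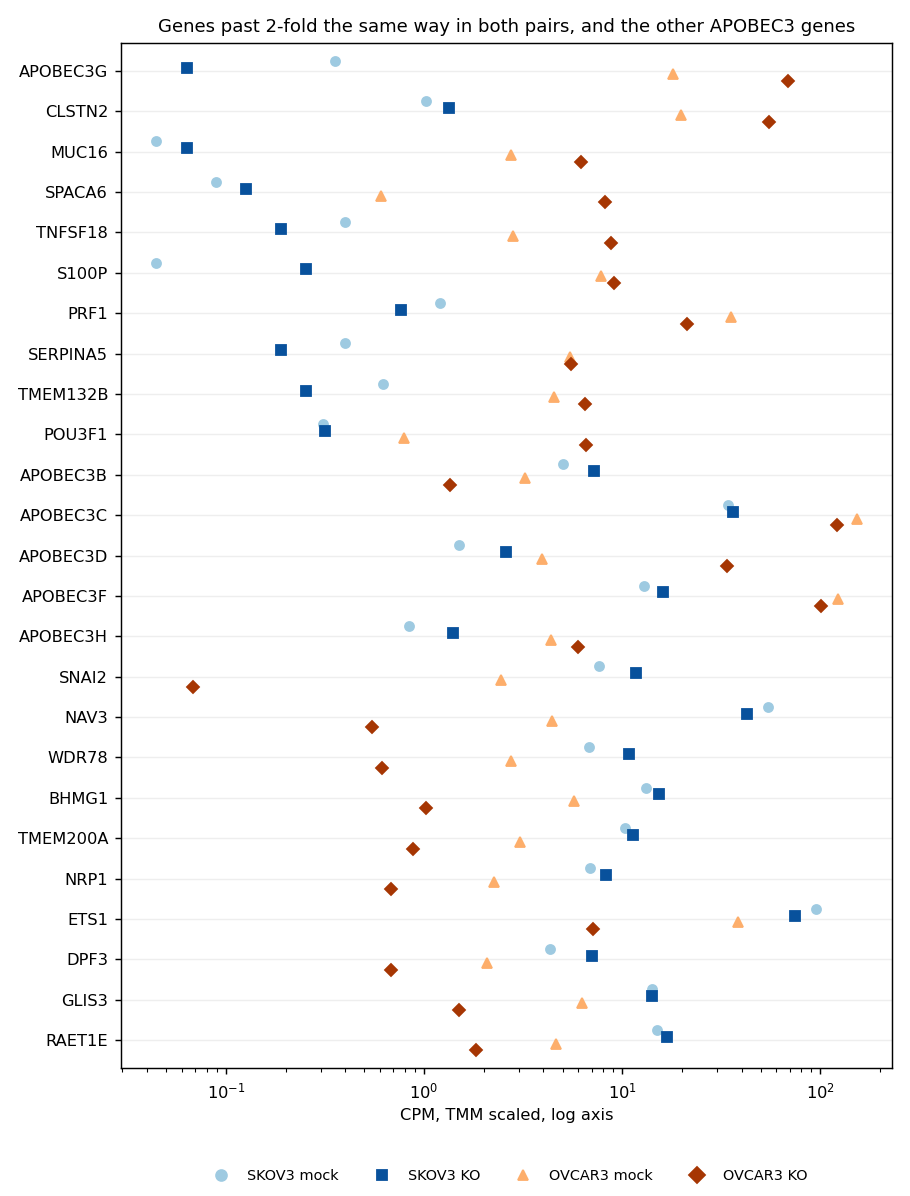
CPM (log axis) in each of the 4 libraries of the 10 highest and 10 lowest protein-coding genes past 2-fold the same way in both pairs, with the other 5 compared APOBEC3 genes between them. In the upper genes both OVCAR3-labelled libraries lie above both SKOV3-labelled ones, and in the lower genes OVCAR3 KO is the lowest library.

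Ovarian and epithelial genes were examined by function. Of 27 ovarian and Müllerian markers 15 were compared. In OVCAR3 KO 7 were higher (46.7%) and 0 lower, beside 14.5% and 17.1% of all genes, and 4 of the 7 were higher in the mock pair too. MUC16, FOLR1, SLPI and KLK10 were below 5 CPM in SKOV3 KO and were compared only through OVCAR3 KO. In the knockout pair they could only be higher there, so the split rests in part on that choice. SLPI, a secreted protease inhibitor, was at 3.30 CPM in SKOV3 KO and 20.8 CPM in OVCAR3 KO, and KLK10 was at 4.12 and 11.7 CPM. The kallikrein KLK6 was at 18.2 and 11.7 CPM in the knockout pair but 20.7 and 63.8 CPM in the mock pair. EHF, an epithelial ETS factor, was at 68.9 CPM in SKOV3 KO and 461 CPM in OVCAR3 KO, with 75.4 and 296 CPM in the mock pair. It was the only one of 16 compared epithelial regulators higher by 2-fold, and ELF3, ST14 and SPINT1 were lower, a share of 18.8% beside 17.1% of all genes. Among 24 junction and adhesion genes, 1 was higher (CLDN3) and 6 were lower in OVCAR3 KO, with a median log2 ratio of -0.59 beside 0.37 in the mock pair. JUP, the desmosomal and adherens protein plakoglobin, was at 178 CPM in SKOV3 KO and 54.4 CPM in OVCAR3 KO, while the mock pair had 189.6 and 511 CPM. LSR, a protein of tricellular junctions, was at 248 and 57.6 CPM, with 227 and 299.5 CPM in the mock pair. CDH1 was at 49.2 and 31.5 CPM, a ratio of -0.64 (-0.81 to -0.47), against 1.12 in the mock pair.

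Keratins and 2 chains of the basement membrane laminin-332 were lower in OVCAR3 KO and less than 2-fold apart in the mock pair. Of 7 keratins compared, 5 were lower in OVCAR3 KO and 0 higher, with a median log2 ratio of -1.41 beside 0.29 in the mock pair. KRT19, a simple-epithelium keratin, was at 1948 CPM in SKOV3 KO and 401 CPM in OVCAR3 KO, with 2086 and 2378 CPM in the mock pair. KRT80 was at 51.1 and 2.58 CPM, a ratio of -4.25 (-4.82 to -3.84) beside 0.29. KRT8 and KRT7 had ratios of -1.41 (-1.44 to -1.38) and -1.96 (-2.19 to -1.76). LAMB3, a chain of laminin-332, was at 163 CPM in SKOV3 KO and 14.8 CPM in OVCAR3 KO, with 185 and 268 CPM in the mock pair. LAMA3, another of its chains, was at 41.4 and 4.41 CPM. LAMA5, the alpha chain of another laminin, went the opposite way, with 71.0 CPM in SKOV3 KO and 573 CPM in OVCAR3 KO. VGF, a secreted neuropeptide precursor, was at 125 and 6.11 CPM, a ratio of -4.33 (-4.68 to -4.05) beside -0.03 in the mock pair. FLNC, an actin crosslinker, was at 144 and 13.4 CPM, a ratio of -3.42 (-3.65 to -3.22) beside -0.21, and DHRS2 had -3.44 (-3.71 to -3.21) beside 0.02. In each gene named here as lower, OVCAR3 KO was the lowest of the 4 libraries. These genes were named for a large ratio in the knockout pair, so the choice itself favours that order.

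Other genes were higher in OVCAR3 KO and close to even in the mock pair. PAQR6, TVP23C, KCNIP2 and SLFNL1 were below 5 CPM in SKOV3 KO, so they were compared only through OVCAR3 KO. GSDMB, a gasdermin, was at 6.03 CPM in SKOV3 KO and 76.2 CPM in OVCAR3 KO, with 9.92 and 7.18 CPM in the mock pair. Its log2 ratio was 3.63 (3.36 to 3.98) beside -0.46. PAQR6, a membrane progestin receptor, was at 2.22 and 39.2 CPM, a ratio of 4.07 (3.65 to 4.68) beside 0.26. TVP23C, KCNIP2 and SLFNL1 had ratios of 3.83 (3.32 to 4.61), 3.62 (2.99 to 4.74) and 3.52 (2.91 to 4.54), beside 0.40, 0.01 and -0.00. HOXB3 was at 5.39 CPM in SKOV3 KO and 35.8 CPM in OVCAR3 KO, with 6.24 and 8.70 CPM in the mock pair. Of the HOXA genes, homeobox factors of body position, 6 were compared and 4 were lower, led by HOXA11 at 18.0 and 4.48 CPM.

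Clock and stress-response genes included those whose order in the mock pair was reversed in the knockout pair. Of 15 circadian clock genes compared, 10 were lower in OVCAR3 KO and 1 was higher (CLOCK), with a median log2 ratio of -1.22 beside 0.38 in the mock pair. NR1D1, the repressor REV-ERB alpha, was at 259 CPM in SKOV3 KO and 22.1 CPM in OVCAR3 KO, while the mock pair had 255 and 549 CPM. Its log2 ratio was -3.54 (-3.72 to -3.39) against 1.10. PER1 was at 117 and 19.1 CPM, with 105 and 301 CPM in the mock pair, a ratio of -2.60 (-2.79 to -2.43) against 1.51. BHLHE41 was at 32.7 and 1.49 CPM, and BHLHE40 at 124 and 23 CPM. Of 29 ATF4 targets, genes of the amino acid response, 16 were higher and 0 lower in OVCAR3 mock, with a median of 1.32. In the knockout pair 4 were higher and 9 lower, with a median of -0.67. GDF15, a stress-induced cytokine, was at 679.6 CPM in SKOV3 KO and 81.8 CPM in OVCAR3 KO, with 599 and 1569 CPM in the mock pair. SLC3A2, the heavy chain of amino acid exchangers, was at 496 and 79.6 CPM. The 4 that were higher in both pairs were ASNS, CHAC1, PSAT1 and SLC7A11. ASNS, asparagine synthetase, was at 90.1 and 419.8 CPM in the knockout pair and at 122 and 866 CPM in the mock pair, and SLC7A11, the cystine importer, at 25.2 and 93.1 CPM beside 50.9 and 193 CPM.

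Inflammatory and immediate early genes were more often lower than higher in OVCAR3 KO. Of 14 NF-kB and inflammatory genes, 9 were lower in OVCAR3 KO and 2 higher, with a median of -1.78 beside 0.30 in the mock pair. The subunit gene RELA was at 137 and 22.5 CPM and TNFAIP3, a feedback inhibitor, at 35.7 and 3.53 CPM. The higher 2 were LIF and the cytokine IL18, at 12.6 CPM in SKOV3 KO and 56.3 CPM in OVCAR3 KO. Of 24 immediate early genes, 13 were lower and 1 higher, with a median of -1.11 beside 0.31. JUN was at 249 and 29.7 CPM and ATF3 at 146 and 16 CPM, while FOS was higher, at 23 and 84.4 CPM, and was higher in the mock pair too, at 23.3 and 180.3 CPM.

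Genes that read out growth signalling were split. Of 22 genes of ERK output, 10 were lower and 3 higher, and the 3 (DUSP6, SPRY4 and SPRED3) were higher in the mock pair too. CCND1, cyclin D1, was at 645 CPM in SKOV3 KO and 198 CPM in OVCAR3 KO, with 669.8 and 693 CPM in the mock pair, and MYC at 361 and 123 CPM. EGFR was at 68.6 and 26.7 CPM, a ratio of -1.36 (-1.53 to -1.19) beside 0.21. Of 20 YAP/TEAD targets, 8 were lower and 2 higher, with a median of -0.89. CYR61 was at 58.0 and 11.5 CPM and CTGF at 7.74 and 1.43 CPM, but ANKRD1 was at 0.698 and 8.28 CPM.

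Lipid and sugar metabolism followed the same direction in part. Of 29 cholesterol and fatty acid genes, 13 were lower in OVCAR3 KO and 0 higher, with a median of -0.82 beside -0.12 in the mock pair. FASN, fatty acid synthase, was at 1009 CPM in SKOV3 KO and 119.7 CPM in OVCAR3 KO, with 988 and 1135 CPM in the mock pair, a ratio of -3.07 (-3.15 to -3.00). SCD was at 600.1 and 179 CPM in the knockout pair. Of 19 glycolytic genes, 7 were lower and 1 higher. PKM was at 1507 and 346 CPM and PFKP at 344 and 77.8 CPM, whereas PGK1 had a ratio of 0.54 (0.49 to 0.59).

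Cell cycle genes were examined by phase. Of 41 S-phase genes, 13 were lower in OVCAR3 KO and 0 higher, and the median was -0.45 in both pairs. In the mock pair 3 were lower by 2-fold, and 1 gene was lower in both pairs. MCM2, a subunit of the replicative helicase, was at 171 CPM in SKOV3 KO and 22.6 CPM in OVCAR3 KO, with 133 and 90.6 CPM in the mock pair. MCM6 of the same complex was at 155 and 144 CPM. Of 50 G2 and M genes, 4 were lower (8.0%, beside 17.1% of all genes) and 0 higher, with medians of -0.15 and -0.17. PLK1 was at 128 and 20.1 CPM and CDC20 at 294 and 54.6 CPM. CDKN1A, the cell cycle inhibitor p21, was at 829 CPM in SKOV3 KO and 109.6 CPM in OVCAR3 KO, with 808 and 938 CPM in the mock pair, a ratio of -2.92 (-2.99 to -2.84). Of 75 mitochondrial ribosomal proteins, 24 were lower and 2 higher, with medians of -0.55 in the knockout pair and -0.71 in the mock pair, and 14 were lower in both pairs. MRPL49 was at 188 and 29.6 CPM in the knockout pair and at 176 and 68.5 CPM in the mock pair. Of 80 cytosolic ribosomal proteins, 1 was higher and 1 lower, with medians of 0.35 and -0.33. The small nucleolar host RNAs SNHG5 and SNHG15 were lower in both pairs, with SNHG5 at 224 and 55.0 CPM beside 186 and 74.0 CPM.

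Mitochondrially encoded mRNAs were higher in OVCAR3 KO. Of 13, 12 were higher by 2-fold, with a median log2 ratio of 2.16 beside 0.08 in the mock pair. COX1, a subunit of cytochrome oxidase, was at 6479 CPM in SKOV3 KO and 38504 CPM in OVCAR3 KO, with 8181 and 6182 CPM in the mock pair. ND4 was at 6085 and 26993 CPM, with 5735 and 5478 CPM. ND1 and ND2 stood apart, with ratios of 0.96 (0.94 to 0.98) and 1.01 (1.00 to 1.02) beside 0.91 and 0.96 in the mock pair. ND6 lies opposite the other genes of the circle, and the strand setting of the counting is not given in the sources used here. Of 44 nuclear genes of oxidative phosphorylation, 1 was higher (2.27%) and 5 were lower (11.4%), beside 14.5% and 17.1% of all genes. The median of the 44 was 0.03, a sign that turned with the scaling, over a range of -0.27 to 0.14.

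Noncoding RNAs had higher medians than coding genes. The 304 long noncoding RNAs had a median log2 ratio of 0.87 beside -0.31 in the mock pair, with 142 higher and 31 lower in OVCAR3 KO. The 233 pseudogenes had 0.82 beside -0.25, and the 10827 nuclear protein-coding genes -0.11 beside -0.00. Of all genes compared, 14.5% were higher and 17.1% lower in OVCAR3 KO. Genes were taken by their level in the knockout libraries, 887 only through OVCAR3 KO and 477 only through SKOV3 KO. That choice by itself can raise the knockout medians of low-level RNAs. The mock libraries took no part in it, but the ratios of the 2 pairs had a Pearson r of 0.27. The mock medians can therefore be moved by it too. Its share in either was not tested. MALAT1, a nuclear RNA, was at 30.0 CPM in SKOV3 KO and 198 CPM in OVCAR3 KO, with 41.3 and 25.9 CPM in the mock pair. NEAT1, which builds paraspeckles, had a ratio of 2.49 (2.45 to 2.54) against -1.65 in the mock pair. RN7SL1 and RN7SL2, near-identical RNAs of the signal recognition particle whose reads the counting could split, were at 89.7 and 888 CPM and at 70.0 and 651 CPM. LINC00672 was at 0.381 and 11.7 CPM, a ratio of 4.57 (3.79 to 6.41) beside 0.98. RefSeq types it as protein-coding, so it is not among the 304, and it was compared only through OVCAR3 KO. The mitochondrial share of counts and the levels of NEAT1, MALAT1, RN7SL1 and RN7SL2 were highest in OVCAR3 KO. In SKOV3 KO the mitochondrial share was 5.93%, beside 5.16% in SKOV3 mock and 5.93% in OVCAR3 mock. RN7SL1 was not close to its mock there, at 89.7 CPM against 228 CPM in SKOV3 mock. ND1 and ND2 were higher in OVCAR3 mock than in SKOV3 mock too. The part of these RNAs in the differences of single genes was not tested.

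The ratio ran with base composition, in opposite senses in the 2 pairs. Over 10817 protein-coding genes the Spearman rho with transcript GC content was -0.35 in the knockout pair and 0.26 in the mock pair, a description across genes of 1 library against another. In the fifth of genes with the lowest GC, from 30.2% to 40.6%, the median was 0.26 and 4.07% of genes were lower by 2-fold. In the fifth with the highest, from 58.1% to 74.7%, the median was -0.61 and 34.6% were lower. With a spline trend on GC content and length removed, 1142 genes were higher and 1682 lower, and the Spearman rho between the pairs over protein-coding genes went from 0.32 to 0.49. On that scale the median of all genes with a value was -0.17. The list medians were -1.01 for keratins, -1.64 for NF-kB genes, -1.22 for clock genes, 2.44 for APOBEC3 genes and -0.20 for ATF4 targets. The median went from -0.59 to -0.31 for junction and adhesion genes, from -0.74 to -0.38 for glycolytic genes and from -0.15 to -0.34 for G2 and M genes. It changed sign for nuclear oxidative phosphorylation genes (to -0.20), interferon-stimulated genes (to -0.10) and genes of retroelement silencing (to -0.02), beside -0.17 over all genes. Chromosomes 16, 17, 19 and 22 had the medians -0.43, -0.38, -0.48 and -0.40 before and -0.30, -0.22, -0.23 and -0.15 after the trend was removed.

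**Figure D4:**
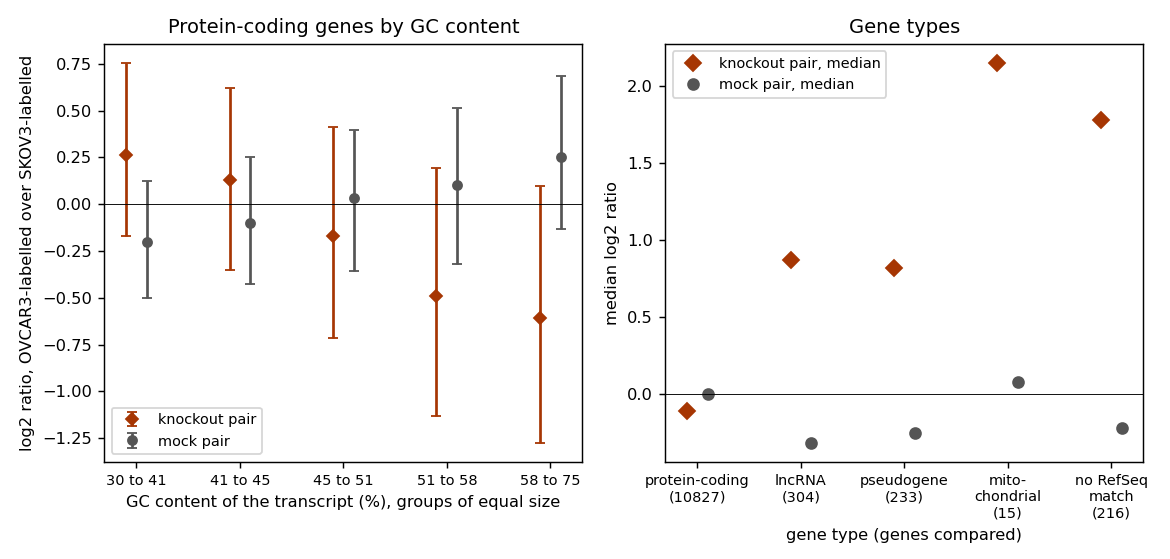
Left, median log2 ratio with the middle 50% of genes (bars) in groups of protein-coding genes by transcript GC content, for the knockout pair and the mock pair. Right, median log2 ratio by gene type. The knockout medians go from 0.26 to -0.61 with GC content while the mock medians go from -0.20 to 0.25.

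Genes that silence or sense retroelements were examined because the knockout is aimed at an endogenous retrovirus. HERV-K119 itself was not analysed here. Of 18 compared genes of retroelement silencing, 3 were higher (16.7%) and 5 lower (27.8%) in OVCAR3 KO, beside 14.5% and 17.1% of all genes. The median of the 18, 0.21, changed sign with the scaling. TRIM28, the corepressor KAP1, was at 603 CPM in SKOV3 KO and 104 CPM in OVCAR3 KO, with 565 and 623 CPM in the mock pair, a ratio of -2.54 (-2.62 to -2.46). DNMT1, the maintenance DNA methyltransferase, was at 372 and 80.4 CPM, with 324 and 271 CPM. ZNF91, a zinc finger repressor of retroelements, was higher, at 11.8 and 38.2 CPM. SETDB1, the methyltransferase that TRIM28 recruits, was at 35.7 and 33.6 CPM. Of 19 entries for named endogenous retroviral loci 5 were compared, 2 of them higher and 2 lower (40.0% each). The 2 higher ones, ERVK13-1 and ERV3-1, were below 5 CPM in SKOV3 KO and were compared only through OVCAR3 KO. In the knockout pair they could therefore only be higher in OVCAR3 KO. ERVK13-1 was at 2.66 CPM in SKOV3 KO and 12.1 CPM in OVCAR3 KO, with 3.10 and 1.52 CPM in the mock pair, and ERVK3-1 at 35.1 and 13.4 CPM, with 32.2 and 22.5 CPM. ERV3-1 was at 1.90 and 9.84 CPM, and the adjoining ZNF117 on chromosome 7, with which it overlaps, at 1.14 and 14.7 CPM. Of 20 interferon-stimulated genes, 5 were higher and 6 lower, with a median of 0.10 that turned with the scaling. PARP9 was at 6.41 and 33.2 CPM, while OASL was at 23 and 5.36 CPM and OAS3 at 58.3 and 16.6 CPM.

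**Figure D5:**
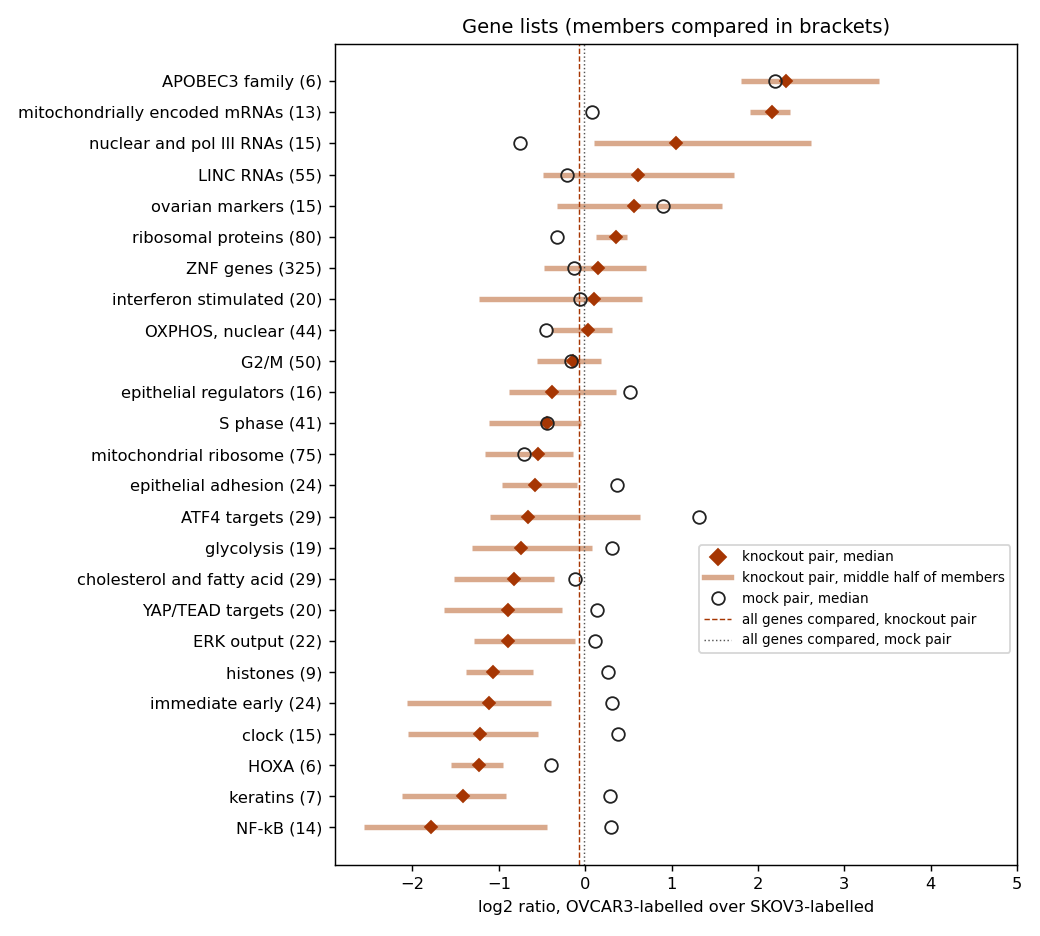
Median log2 ratio of 25 gene lists in the knockout pair (diamonds, bars for the middle 50% of members) and in the mock pair (open circles), with the number of members compared in brackets and dashed and dotted lines at the medians of all 11611 genes, -0.07 and -0.01. APOBEC3 genes, ovarian markers, S-phase, G2/M and mitochondrial ribosomal genes have medians close together in both pairs, while NF-kB, keratin and clock genes lie below 0 only in the knockout pair.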

How the data were processed

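RNA from 4 cultures was sequenced as 4 libraries, made with a NEBNext directional kit per the labels' protocols. The deposited values are raw counts per symbol, not normalised. TopHat and GRCh38 are named per the submitters' processing notes. Which program counted the reads, on which annotation and strand, is not stated there. Groups came from the sample titles, and nothing beyond the labels says how cultures were kept apart.

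Repeated symbols were summed. TMM factors from edgeR 4.0.16 (R 4.3.3), from 13670 genes that reached a CPM of 1 in 2 or more libraries, gave effective library sizes with factors of 1.02 (SKOV3 mock), 1.04 (SKOV3 KO), 1.01 (OVCAR3 mock) and 0.931 (OVCAR3 KO). Membership used CPM of the plain total. A count of 0 allows 3 counts, 0.133 to 0.204 CPM. Gene types and coordinates came from a RefSeq table of GRCh38, which held 98.1% of the compared symbols, and GC content and length from GENCODE 29. The ratio, the size rule and the interval were tested on simulated counts that held counting error only. Those counts had no GC trend, no shift in mitochondrial share and no variation between cultures, so the scaling was not tested.

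The 65 gene lists and the genes compared were chosen with earlier results of these data known. Named genes were, among protein-coding genes with plain symbols, the 10 highest and 10 lowest past 2-fold the same way in both pairs, the 5 per direction with a mock log2 ratio between -0.5 and 0.5 and a summed mock count of at least 50, up to 5 per direction that were opposite in the mock pair, the line genes and their neighbours, and up to 4 members of each list with the largest ratio. Further members of the lists, NEAT1 and the genes of the last section were named after their values were seen. Some genes that met these rules are not reported here. Alternatives were DESeq2 1.42.0 size factors, plain totals, plain totals without mitochondrial transcripts, other CPM limits, prior counts of 0.5 and 5, folds of 1.5 and 4, protein-coding genes alone, and the removal of a spline fitted to GC content and length (5 degrees of freedom). Added after seeing the data were TMM with no filter and each mock library in place of its knockout.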

Additional observations from a re-analysis of the deposited data

Results flagged for a closer look

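For 13 of the 247 named genes the order of the labelled lines was opposite in the knockout and the mock pair, by at least 2-fold in each. Of these 13, 9 were named because they were opposite, so the count describes the choice of genes, and over all 11611 genes 165 were opposite (1.42%). The difference between the pairs was not tested, since each rests on 1 library per group. The values below are log2 ratios of OVCAR3-labelled over SKOV3-labelled, first in the knockout pair.

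In 7 genes the ratio was above 0 in the knockout pair. PTPRB, a receptor phosphatase, had 4.16 and -1.35. BTBD18 had 3.87 and -1.02, ZNF154 had 3.53 and -1.12, and the olfactory receptor gene OR51Q1 had 3.26 and -2.18, each from at most 36 counts in every library but OVCAR3 KO. The mock interval of BTBD18, from 3 counts in OVCAR3 mock and 11 in SKOV3 mock, ran from -3.90 to 0.50. CCDC180 had 0 counts in SKOV3 KO and OVCAR3 mock, 25 in SKOV3 mock and 137 in OVCAR3 KO. Its fitted values of 6.35 and -3.41 depend on the prior count. Against 3 counts, the most that a count of 0 allows in a library, it was at least 48.9-fold higher in OVCAR3 KO than in SKOV3 KO. RN7SL1 and RN7SL2 had 3.31 and -1.67, and 3.22 and -1.51.

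In the other 6 the ratio was below 0 in the knockout pair. The clock genes NR1D1 and PER1 had -3.54 and 1.10, and -2.60 and 1.51. GDF15 had -3.05 and 1.39. OSGIN1, an oxidative stress gene, had -2.99 and 1.14. JUP had -1.70 and 1.43, and the amino acid transporter gene SLC7A8 -1.61 and 1.26.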

How the results depend on the processing

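No paired analysis was possible because each group held 1 library, all with the same number. No replicate could be left out for the same reason. With CPM of at least 1 in either knockout library, 3842 genes were higher in OVCAR3 KO and 2267 lower, so that higher calls outnumbered lower ones, and 726 and 281 in both pairs. With no filter 8537 were higher and 2993 lower in the knockout pair, and 1232 and 396 in both pairs. A fold of 1.5 gave 2834 and 3443, and 915 and 877. A fold of 4 gave 542 and 352, and 42 and 5. With OVCAR3 mock in place of OVCAR3 KO, 943 were higher and 661 lower, while SKOV3 mock in place of SKOV3 KO gave 1636 and 1932. The share of calls that were higher was 45.8%, and 33.6% with DESeq2 size factors, 35.5% with plain totals (1360 and 2468), 53.1% without mitochondrial transcripts, 28.0% with unfiltered TMM (1155 and 2976) and 39.0% where the limit was 10 CPM (1196 and 1868). It was 62.9% with CPM of at least 1, 74.0% with no filter and 60.6% with a fold of 4. The cause of these shifts was not tested. The other scalings moved the ratios of all genes by only -0.30 to 0.11 on the log2 scale. No gene past 2-fold could change direction under them. Of 205 named genes past 2-fold under TMM, all kept their direction under the other scalings and prior counts, and between 197 and 205 stayed past it. Of 188 with a GC and length value, 168 stayed past it after the trend was removed. Depth limits genes near 0, where 1 count is 0.0443 to 0.0679 CPM.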

Other observations

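Several genes outside the lists or not yet described had levels that separated the labels. They were chosen after their values were seen. HBE1, the embryonic epsilon globin (GRCh38 chromosome 11, 5268345 to 5269945), was at 28.7 CPM in SKOV3 KO and 283 CPM in OVCAR3 KO, with 32.5 and 152 CPM in the mock pair. Its log2 ratio was 3.29 (3.16 to 3.44) in the knockout pair and 2.22 in the mock pair. HBG2, a fetal globin gene beside it, was at 0.381 and 6.65 CPM, with 0.310 and 0.913 CPM. TNFRSF6B, a soluble decoy receptor for FAS ligand, was at 15.6 CPM in SKOV3 KO and 229 CPM in OVCAR3 KO, with 20.6 and 411 CPM in the mock pair, a ratio of 3.87 (3.69 to 4.07) beside 4.31. DLC1, a regulator of small GTPases, was at 5.26 and 31.2 CPM, with 3.99 and 53.4 CPM.

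Of 11 Notch pathway genes compared, 5 were lower in OVCAR3 KO by 2-fold and 0 higher, with a median log2 ratio of -0.72 beside 0.11 in the mock pair. That median was -0.32 with the trend on GC content and length removed, and -0.37 over the 14 genes with a CPM of at least 1 in either knockout library. The receptor gene NOTCH2 was at 115 CPM in SKOV3 KO and 44.3 CPM in OVCAR3 KO, with 116 and 124 CPM in the mock pair. The ligand gene JAG2 was at 102 and 44.0 CPM. Of 9 clustered histone genes 6 were lower and 0 higher, with a median of -1.07 beside 0.26. KCNQ1OT1, an imprinted noncoding RNA that runs opposite to KCNQ1, was at 11.2 and 91.6 CPM, with 16.4 and 9.43 CPM in the mock pair, a ratio of 3.02 (2.81 to 3.27) against -0.79. The strand setting of the counting is not given in the sources used here, so its reads and those of KCNQ1 cannot be told apart.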
